A study of Mus musculus with 24 samples.

Results

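Ribosome biogenesis and nucleolar genes were followed across 4 culture states of C2C12, a mouse myoblast line that divides in rich medium and forms muscle cells when serum is withdrawn. A list of 40 genes was taken by name: a gene was a member if a probe set of the array was annotated to that gene alone, and the brightest such probe set, by its mean over the 24 arrays, was used. A probe set was found for 38 of the 40 genes, out of 12393 genes with a probe set. No probe set was matched to Dkc1, the pseudouridine synthase of the box H/ACA particle, or to Nob1, the nuclease of the last cut in small subunit RNA, and they were not analysed here. All 38 measured members were among the 8616 genes kept by the filter on low values.

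The study crossed 2 siRNA treatments with 4 states, with 3 arrays in each of the 8 groups. Cells received siRNA against IFT88 (labelled IFT88KD), a protein of intraflagellar transport that builds the primary cilium, or negative control siRNA (control). Proliferating cells were attached in growth medium with 20% fetal bovine serum. Cells labelled quiescent were kept in suspension in the same growth medium. Replated cells were quiescent cells returned to a surface, again in growth medium, and the labels give 2 h for them. Differentiating cells were switched when near confluence to medium with 2% horse serum for 48 h. Cells of a single established line entered all groups, and a knockdown by siRNA leaves part of the transcript. No label states that replicates came from separate cultures, so p-values here measure the spread between these arrays, which may be technical.

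A ribosome is assembled in the nucleolus from RNA that RNA polymerase I transcribes as a long precursor. Small nucleolar RNA-protein particles (snoRNPs) modify that precursor, the small subunit processome folds and cuts it, and separate sets of assembly factors mature the 40S and 60S subunits. Growing cells spend much of their resources on this pathway, and the transcription factor Myc is known as an activator of many of its genes, often through the DNA letters CACGTG.

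Levels are given as log2 units above or below the median of all genes on the same array, so they are relative. The same mass of RNA, 8 ug per the labels, was labelled for every array, and fewer cells of a kind and less of a transcript per cell cannot be told apart. Ift88 itself averaged -0.26 ± 0.34 (SD, n = 3) in control and -0.80 ± 0.07 in IFT88KD proliferating cells, a difference of -0.53 (SE 0.17) that did not pass (limma, adjusted p = 0.382). The Ift88 difference was -0.67 in quiescent cells (adjusted p = 0.0243), -0.60 in replated cells (adjusted p = 0.0703) and -0.03 in differentiating cells (adjusted p = 1). Of 9 genes of dividing cells, 9 were lower in control quiescent than in control proliferating cells, with a median change of -5.65, and 9 were still lower at 2 h after replating, with a median of -5.42. All 6 markers of differentiating muscle were higher in differentiating than in proliferating control cells, with a median of 5.0. The 5 myoblast markers, which include Myod1 and Des, were above the filter on every array.

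In control cells, all 38 members were lower in quiescent than in proliferating cells, and for 38 of 38 the 3 quiescent arrays lay below the 3 proliferating ones. The changes ran from -2.83 for Rrp12 to -0.38 for Pes1, with a median of -1.39, where all 8616 genes had a median of -0.11. Of all genes tested, 40.3% passed as lower and 30.5% as higher in this comparison. The 3 quiescent arrays lay below the 3 proliferating ones for 3629 of the 8616 genes. At 2 h after replating, 35 of the 38 were higher than in quiescent cells, 1 (Ddx10) was lower, and 2 (Nop10 and Nop16) did not pass, with a median of 1.5 against 0.35 for all genes. In that comparison 52.3% of all genes passed as higher and 17.1% as lower.

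**Figure D1:**
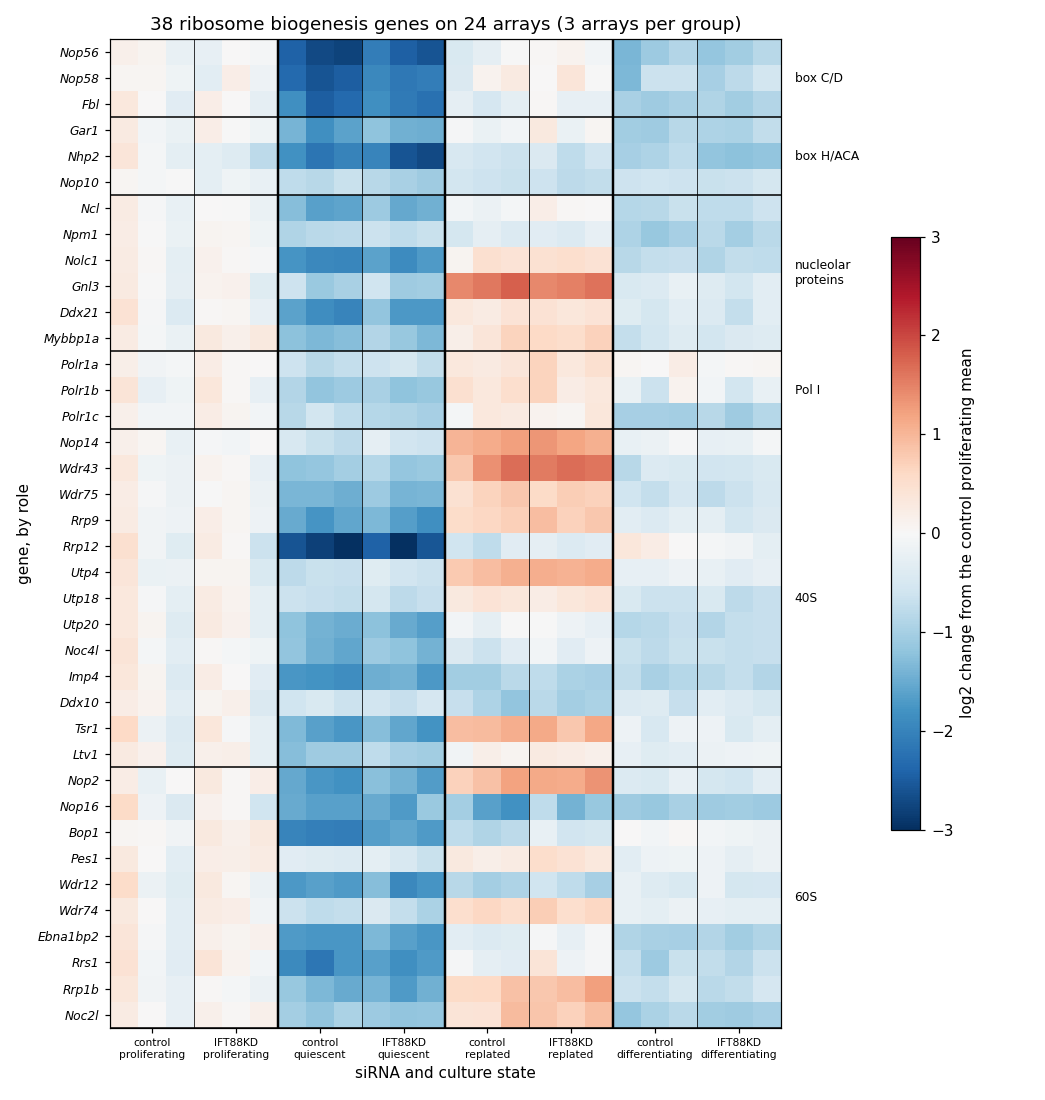
Heat map of 38 genes (vertical, grouped by role) on 24 arrays (horizontal, grouped by state and siRNA); colour is the log2 change of the level from the mean of the 3 control proliferating arrays. The quiescent columns are blue for every gene, with a median change of -1.39 in control cells, while at 2 h after replating Gnl3, Nop14, Wdr43 and Nop2 are red and Nop16, Imp4, Ddx10 and Wdr12 stay blue.

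These counts, and the sizes of the changes, depend in part on how arrays of different states are put on a common scale. The scale of the deposited values differed between states. The median of all genes was 4.59, 4.61 and 4.54 on the control quiescent and 3.71, 3.62 and 3.58 on the control replated arrays. Centring removes the difference between these medians, and this shift is part of every log2 or fold rise after replating given on the centred scale. With the deposited values uncentred, 36 of 38 members were lower in quiescent than in proliferating cells and 0 were higher, while all genes split into 3614 higher and 2536 lower. On that scale 25 members were higher and 5 lower in replated than in quiescent cells, while all genes split into 838 higher and 5703 lower and their median was -0.60. After quantile normalisation the replated comparison had 33 members higher and 3 lower, beside 2575 genes higher and 2887 lower. Relative to the median of all genes, a difference that centring cannot alter because it shifts every gene of an array alike, the median change of the members was -1.29 from proliferating to quiescent cells and 1.15 from quiescent to replated cells. After quantile normalisation, which can alter it, the latter value was 1.07.

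Markers of cell types moved between the same states. All 5 myoblast markers were lower in control quiescent than in control proliferating cells, by a median of -0.82. Of the 6 markers of differentiating muscle 5 were higher and 0 lower (median 2.0), and the same 5 to 0 split was found with the other 3 scalings. The mean level of these 6 differed widely among proliferating control arrays, from -0.27 to 2.57, and ranged from 3.04 to 3.61 on quiescent ones. Myog alone ranged from 0.65 to 4.38 on the proliferating control arrays. Of 6 macrophage markers 3 passed the filter, and those 3 were higher, by a median of 1.48, while the mean level of the 6 ranged from -2.46 to -2.29 on proliferating and from -1.51 to -1.36 on quiescent control arrays. Of 5 fibroblast markers 3 passed the filter and were higher, by a median of 2.48, and the mean level of the 5 ranged from -2.33 to -2.24 and from -0.83 to -0.45. On proliferating control arrays 4 of the 6 macrophage and 4 of the 5 fibroblast markers were above the filter on no array. Cd68, Lum and Pi16 were each above it on 0 of these arrays and were kept through groups where they were higher. The filter thus in part fixed the direction of their change. Of the markers not kept, Ptprc, Adgre1, Tyrobp and Thy1 had lower means in quiescent than in proliferating control cells, and Dpt had a higher one. No adipocyte or endothelial marker was kept by the filter (0 of 2 and 0 of 4 measured). The part of these markers in the fall of the members was not tested.

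The promoters of the members were read for short DNA motifs, because the members moved together. RefSeq windows of 250 bases before and 50 after the annotated start (build GRCm38.p6) were matched by symbol for 35 of the 40 listed genes, and Fbl, Npm1, Bop1, Rrs1 and Rrp12 were not matched. The letters CACGTG stood in 10 of 35 members (28.6%) and in 8.09% of the 27025 genes with a window. Those genes include many without a probe set here, and they were not matched to the members for level or base composition. The letters CACGCG, which Myc can also bind, were in 28.6% of members and 10.5% of genes, and CCGGAAG, the core of ETS factor sites, was in 37.1% and 9.93%. The letters AAGATGG, a core of YY1 sites, were in 5.71% of members and 7.28% of genes, and CCAAT, bound by NF-Y, was in 37.1% and 41.1%. Each motif was searched on both strands, and none of the CACGTG matches in members shared bases with a match of the other 4 motifs. Of the 10 members with CACGTG, 5 also held CCGGAAG. A match is a run of letters and not a measured binding site. Among the measured members with a window, the median change into quiescence was -1.21 for those with CACGTG (n = 10) and -1.40 for those without (n = 23), and the median change after replating was 1.44 and 1.49.

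The matches are shown because CACGTG is the motif named above for Myc. CACGTG is in capitals, each stretch is 5′ to 3′ on the strand of the gene, and bases are counted from the annotated start.
Imp4: cttagacCACGTGacatccc
Nop2: cctggatCACGTGtgttccg
Utp18: cgccggtCACGTGgcttgcg
Pes1: ggcagggCACGTGcgggagg
Utp4: aagcgcgCACGTGgggccgg
Wdr43: gggcgaaCACGTGgctgccg
Tsr1: tggtgcaCACGTGgactgca
Ltv1: gtggaccCACGTGtggagct
Utp20: ctaactaCACGTGaggaaaa
Mybbp1a: ctgagccCACGTGtttg
In 3 of the 10 the match begins before the start, at 121 bases for Imp4 (chr1:34439701-34439720, plus strand), 60 bases for Nop2 (chr6:125131816-125131835, plus strand) and 20 bases for Utp18 (chr11:93885774-93885793, minus strand). In the other 7 it begins after the start, from 2 bases for Pes1 (chr11:3963970-3963989, plus strand) to 40 bases for Mybbp1a (chr11:72441360-72441376, plus strand), whose stretch is cut by the end of the window. The Wdr43 match lies 17 bases after the start (chr17:71616225-71616244, plus strand).

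Nop2, an RNA methyltransferase of 60S assembly, had the largest rise of any member after replating, so the 250 bases before its start are given whole (chr6:125131633-125131882, plus strand, GRCm38.p6), with CACGTG in capitals. The stretch also holds CCGGAAG, left in lower case, after the CACGTG.
Nop2 upstream: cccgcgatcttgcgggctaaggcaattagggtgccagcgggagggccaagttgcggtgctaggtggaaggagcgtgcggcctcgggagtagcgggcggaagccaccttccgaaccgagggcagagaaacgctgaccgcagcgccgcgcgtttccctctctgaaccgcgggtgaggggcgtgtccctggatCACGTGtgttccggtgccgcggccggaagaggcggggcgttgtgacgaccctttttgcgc
On the control arrays Nop2 stood at 2.55, 2.11 and 2.34 in proliferating, 0.81, 0.60 and 0.51 in quiescent, and 3.01, 3.20 and 3.54 in replated cells. The 3 states did not overlap on this scale, and replated cells were the highest. With uncentred values the change of Nop2 from proliferating to replated cells was 0.22 and did not pass (limma, adjusted p = 0.129). Nop2 was 3.24-fold lower in quiescent than in proliferating cells (log2 change -1.70, SE 0.14, adjusted p = 7.5e-10). On the centred scale, Nop2 was then 6.13-fold higher in replated than in quiescent cells (log2 change 2.62, SE 0.14, adjusted p = 3.82e-12). This rise includes the shift between the array medians.

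The 3 members that encode core proteins of the box C/D snoRNP, which guides ribose methylation of ribosomal RNA, fell in quiescent cells, with log2 changes from -2.63 to -2.21. Nop56, a scaffold of the particle, stood at 5.12, 5.03 and 4.73 in control proliferating and at 2.54, 2.26 and 2.18 in control quiescent cells. Replated control arrays were at 4.50, 4.68 and 4.95 and differentiating ones at 3.60, 3.86 and 4.09. Quiescent arrays were thus the lowest, differentiating arrays lay between, and replated arrays overlapped the proliferating ones. Nop56 was 6.21-fold lower in quiescent than in proliferating cells (log2 change -2.63, SE 0.15, adjusted p = 1.89e-12) and 5.22-fold higher in replated than in quiescent cells (adjusted p = 3.85e-11). Nop58, its partner, fell from 4.78, 4.79 and 4.61 to 2.39, 2.13 and 2.25, and was at 4.30, 4.83 and 4.99 after replating. Its fall was 5.54-fold (SE 0.19 log2, adjusted p = 1.42e-10) and its rise 5.46-fold (adjusted p = 4.09e-10). Fbl, the methyltransferase fibrillarin, was 4.62-fold lower in quiescent cells (adjusted p = 1.01e-10) and 3.61-fold higher after replating (adjusted p = 3.62e-09).

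The box H/ACA snoRNP converts uridines to pseudouridines, and its 3 measured core proteins fell in quiescent cells by different amounts. Nhp2, which binds the guide RNA, stood at 5.02, 4.59 and 4.36 in control proliferating, 2.83, 2.47 and 2.66 in quiescent, 4.18, 4.09 and 4.01 in replated and 3.66, 3.74 and 3.90 in differentiating cells. The 4 control states of Nhp2 did not overlap, with proliferating arrays the highest and quiescent arrays the lowest. Nhp2 was 4.01-fold lower in quiescent than in proliferating cells (adjusted p = 1.27e-09) and rose 2.71-fold after replating (adjusted p = 2.94e-07). Gar1, another core protein, changed by -1.61 and then by 1.5. Nop10, the smallest protein of the particle, fell from 5.09, 4.98 and 5.02 to 4.27, 4.20 and 4.37, a change of -0.75 (SE 0.08, adjusted p = 5.75e-08). Its replated arrays, at 4.49, 4.40 and 4.37, gave a difference of 0.14 (SE 0.08) from quiescent cells that did not pass (adjusted p = 0.137). An additional probe set of Nop10 gave -0.85 and -0.14 for the same changes.

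All 6 nucleolar phosphoproteins, chaperones and GTPases fell in quiescent cells and rose after replating, except that the rise of Npm1 turned into a fall on other scales. Ncl, or nucleolin, which binds the nascent precursor, stood at 6.30, 6.01 and 5.82 in proliferating, 4.77, 4.41 and 4.46 in quiescent and 5.96, 5.86 and 5.99 in replated control cells. Its quiescent arrays were separate from the rest and its replated arrays fell within the proliferating range. The fall of Ncl was 2.82-fold (adjusted p = 1.11e-09) and its rise 2.62-fold (adjusted p = 6.65e-09). Nolc1, a chaperone of snoRNPs, fell 3.69-fold and rose 4.62-fold, and the RNA helicase Ddx21 fell 3.53-fold and rose 4.42-fold. Mybbp1a, a nucleolar Myb-binding protein, fell 2.42-fold and rose 3.21-fold. Npm1, the abundant chaperone nucleophosmin, changed less, by -0.83 (SE 0.11) and then 0.43 (SE 0.11, adjusted p = 0.00118). The change of Npm1 after replating was -0.52 with uncentred values and -0.23 after quantile normalisation.

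Gnl3, the GTPase nucleostemin, overshot its proliferating level. Its control arrays were at 4.17, 3.88 and 3.63 in proliferating, 3.26, 2.79 and 2.92 in quiescent, 5.33, 5.48 and 5.70 in replated and 3.43, 3.48 and 3.67 in differentiating cells. Each replated array of Gnl3 lay above each array of the other states. Gnl3 was 1.87-fold lower in quiescent than in proliferating cells (adjusted p = 3.93e-05), 5.71-fold higher in replated than in quiescent cells (adjusted p = 3.48e-11) and 3.05-fold higher in replated than in proliferating cells (log2 change 1.61, SE 0.16, adjusted p = 9.94e-09).

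All 3 measured subunits of RNA polymerase I fell into quiescence by a median of -0.72, and rose after replating, with a median of 1.04. Polr1a, the largest subunit, stood at 1.15, 0.86 and 0.91 in proliferating, 0.35, 0.14 and 0.26 in quiescent, 1.29, 1.25 and 1.34 in replated and 1.02, 0.98 and 1.20 in differentiating control cells. Quiescent arrays were the lowest and replated arrays the highest on this scale, and the proliferating and differentiating arrays overlapped. Polr1a fell 1.65-fold (adjusted p = 2.48e-06) and rose 2.06-fold (adjusted p = 2.04e-08). Polr1b, the second of the catalytic pair, changed by -1.05 and then 1.49, and Polr1c, which RNA polymerase III shares, by -0.71 and then 0.89. With uncentred values the change of Polr1a after replating was 0.10 and that of Polr1c -0.06, and neither passed. From proliferating to replated cells Polr1a changed by -0.38 with uncentred values and passed as lower (limma, adjusted p = 0.00222). That change was 0.20 after quantile normalisation and 0.16 with centring on the kept genes, and passed in neither.

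The 13 measured genes of the small subunit processome and 40S maturation had a median change of -1.37 in quiescent cells, and 12 of the 13 rose after replating. With uncentred values Noc4l (-0.03) and Imp4 (-0.10) turned the other way and Utp18, Utp20 and Ltv1 did not pass. Rrp12, a factor of 40S export, fell most, from 1.21, 0.62 and 0.37 in proliferating to -1.86, -2.06 and -2.38 in quiescent control cells, and stood at 0.13, -0.03 and 0.39 after replating. Its quiescent arrays were separate from both other states, and 2 of the 3 were above the filter. Rrp12 was 7.12-fold lower in quiescent than in proliferating cells (log2 change -2.83, SE 0.22, adjusted p = 1.67e-10). Wdr43, of the complex that joins the precursor first, stood at 2.37, 1.91 and 1.87, then 0.85, 0.89 and 1.04, then 2.85, 3.43 and 3.73 in proliferating, quiescent and replated control cells. It fell 2.18-fold and rose 5.32-fold, and all replated arrays lay above all proliferating ones. Tsr1, a late 40S factor, rose 5.88-fold after replating (SE 0.20 log2, adjusted p = 7.68e-10), from 0.99, 0.70 and 0.58 to 3.24, 3.27 and 3.42. Rrp9 rose 4.76-fold and Wdr75 4.14-fold, both proteins of the processome.

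Ddx10, an RNA helicase, was the gene of this group that did not rise. Its control arrays were at 1.69, 1.59 and 1.15 in proliferating, 0.88, 1.03 and 0.83 in quiescent and 0.78, 0.56 and 0.29 in replated cells. The level was lowest after replating, with each of those arrays below each quiescent one. The change from quiescent to replated cells was -0.37 (SE 0.15, adjusted p = 0.0381), but the adjusted p was 0.0589 without control quiescent replicate 1, 0.126 without control quiescent replicate 2, 0.0665 without the second replated control array and 0.201 without the third. The remaining genes of the group, Nop14, Utp4, Utp18, Utp20, Noc4l, Imp4 and Ltv1, had log2 changes from -1.80 to -0.65 in quiescent cells and from 0.84 to 1.77 after replating. Nop14, a scaffold of the processome, rose most of these 7 and Imp4, which helps pair the guide RNA with the precursor, rose least.

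The 10 genes of 60S assembly had a median change of -1.64 in quiescent cells, and 9 of them rose after replating, of which Pes1 (-0.33) and Wdr12 (-0.18) turned the other way with uncentred values. Bop1, Pes1 and Wdr12 form the PeBoW complex, which matures the large subunit RNAs. Bop1 stood at 2.80, 2.78 and 2.62 in proliferating, 0.76, 0.69 and 0.66 in quiescent, 1.97, 1.83 and 1.94 in replated and 2.76, 2.65 and 2.78 in differentiating control cells. The 3 arrays of each state lay close together, quiescent arrays were lowest, and differentiating arrays overlapped the proliferating ones. Bop1 fell 4.08-fold (log2 change -2.03, SE 0.09, adjusted p = 2.36e-14) and rose 2.31-fold (adjusted p = 3.75e-10). Wdr12 fell 3.22-fold and rose 1.70-fold, while Pes1 fell 1.30-fold (adjusted p = 0.00664) and rose 1.53-fold (adjusted p = 9.66e-05). The Pes1 fall did not pass with uncentred values, after quantile normalisation, with centring on the kept genes, or without replicate 1 of the control proliferating arrays. A different probe set of Pes1 gave -1.34 and 1.26, so the size of its change rests on the probe set.

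Rrs1, which brings the 5S particle into the large subunit, fell from 3.79, 3.27 and 3.0 to 1.45, 1.20 and 1.6, a 3.83-fold change (adjusted p = 3.85e-09), and rose 3.30-fold. Ebna1bp2 fell 3.31-fold and rose 2.58-fold, but its additional probe set changed by 0.04 and 0.16 and passed in neither. The assembly factors Rrp1b, Noc2l and Wdr74 had log2 changes from -1.33 to -0.70 and then from 1.25 to 2.02. Nop16 stood at 2.21, 1.48 and 1.19 in proliferating, 0.11, 0.01 and 0.01 in quiescent, and 0.62, -0.01 and -0.18 in replated cells. Its change of -1.59 (SE 0.24) into quiescence passed (adjusted p = 3.74e-06), and the later difference of 0.10 (SE 0.24) did not (adjusted p = 0.721). Another probe set of Nop16 gave -0.36 and then 1.15, so the 2 probe sets of this gene differ on whether it rose. In all, 27 other probe sets of 21 members were above the filter, and 24 of them were lower in quiescent cells with a passing test and 1 (that of Ebna1bp2) had the opposite sign.

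**Figure D2:**
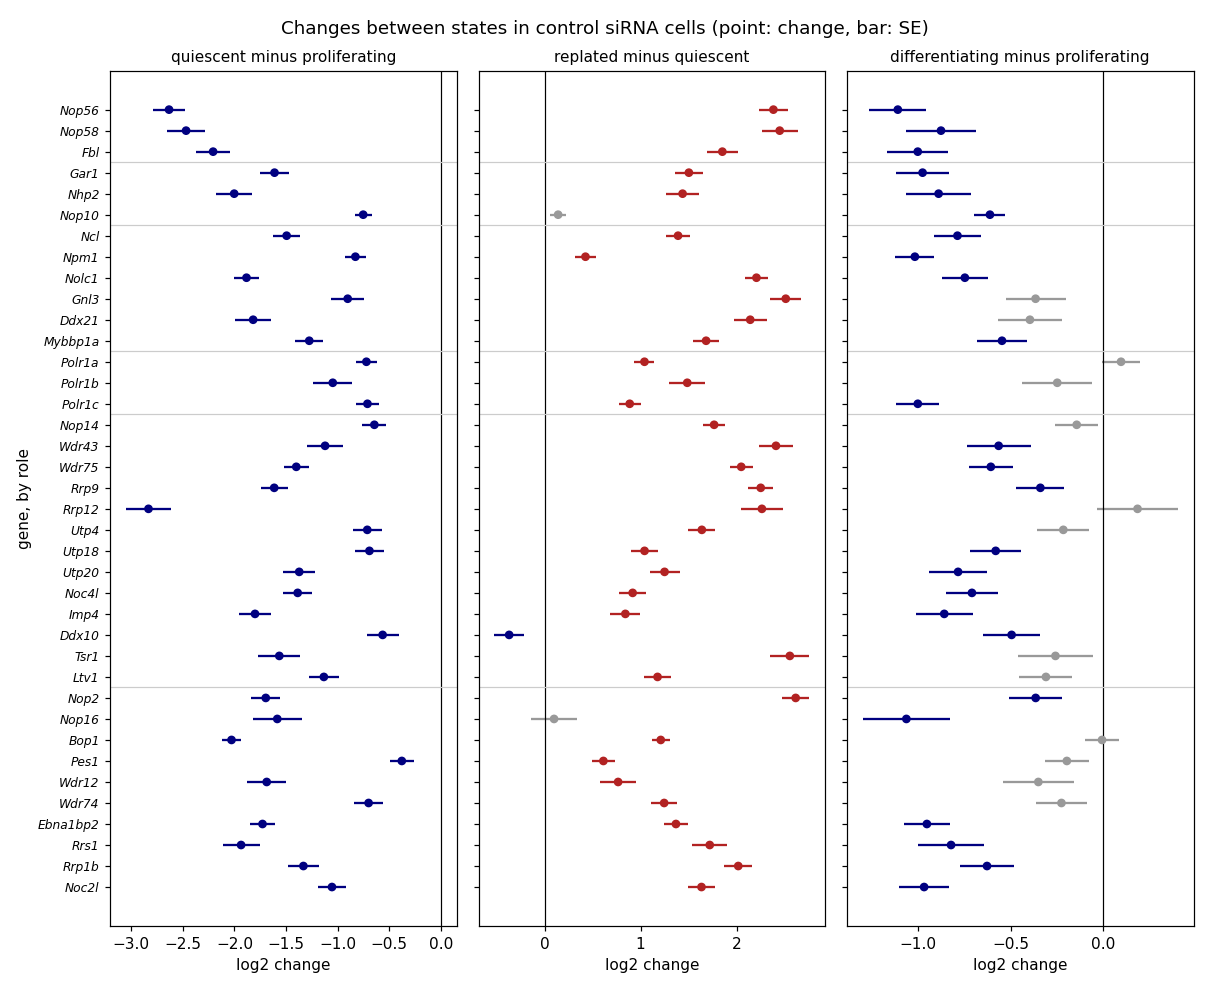
Log2 change (horizontal) of each of 38 genes (vertical, grouped by role) in control cells for 3 comparisons of states; points are changes, bars are standard errors from limma, blue and red mark falls and rises with an adjusted p under 0.05 and grey the rest. All 38 points are left of 0 in the first panel and 25 in the last panel are blue, and 35 in the middle panel are red, which became 25 with uncentred values.

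Replated cells were also compared with proliferating cells, to see which members had returned to, passed or stayed under the level of growing cells at 2 h. By this measure 16 members were higher, 11 lower and 11 did not pass, with a median of 0.11 against 0.29 for all genes. Of all genes, 49.6% passed as higher and 28% as lower. The split rests on the scale: with uncentred values 3 members were higher and 26 lower (all genes 2043 and 4691), and after quantile normalisation 9 and 18 (all genes 3244 and 3267). With centring on the kept genes it was 11 and 13. Relative to the median of all genes, which centring cannot alter, the members' median change was -0.18, and after quantile normalisation it was -0.20.

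Under the alternatives run, 9 members kept their call between replated and proliferating cells, 3 of them higher and 6 lower. The 3 higher ones were Gnl3 (log2 change 1.61), Wdr43 (1.29, SE 0.17, adjusted p = 7.39e-07) and Nop14 (1.12, SE 0.12, adjusted p = 1.4e-08). Nop14 stood at 1.76, 1.66 and 1.39 in proliferating and at 2.62, 2.71 and 2.84 in replated control cells, with no overlap. The 6 lower ones were Nop16 (-1.49), Imp4 (-0.96), Ddx10 (-0.93), Bop1 (-0.82), Nop10 (-0.61) and Npm1 (-0.40). Imp4 fell from 2.17, 1.91 and 1.42 in proliferating to 0.79, 0.80 and 1.03 in replated cells, also with no overlap. Other probe sets of Nop16 and Imp4 went the opposite way and passed, at 0.79 and 0.45, as did one of Wdr12, at 0.98 against -0.92 for the probe set used. For Nop2, Tsr1, Utp4 and Wdr75 the log2 changes were 0.92, 0.99, 0.92 and 0.65 on the centred scale. With uncentred values they were 0.22, 0.29, 0.23 and -0.05, and none of these passed.

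After 48 h in differentiation medium 25 of the 38 members were lower than in proliferating control cells, 0 were higher and 13 did not pass. The median change was -0.60, where all genes had -0.15, and 37.2% of all genes passed as lower and 20.1% as higher. With uncentred values, after quantile normalisation and with centring on the kept genes the count of lower members was 23. Of 22 other probe sets of called members 16 passed as lower, while that of Nop16 gave 0.13 (adjusted p = 0.493) and that of Wdr75 gave 0.65 and passed as higher (adjusted p = 0.00414). All 9 genes of dividing cells were also lower in differentiating cells, by a median of -1.58, and their part in the members' fall was not tested. All 6 measured snoRNP members fell, with log2 changes from -1.11 to -0.61. Nop56 was 2.16-fold lower (SE 0.15 log2, adjusted p = 3.3e-06), Fbl 2.00-fold lower (adjusted p = 2.48e-05) and Gar1 1.97-fold lower (adjusted p = 5.84e-06).

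Npm1 and Polr1c were the members with a lower mean in differentiating than in quiescent control cells. Npm1 stood at 5.46, 5.26 and 5.39 against 6.60, 6.38 and 6.19 in proliferating cells, a 2.03-fold fall (adjusted p = 5.86e-08). Of the polymerase subunits Polr1c fell. It stood at 1.80, 1.79 and 1.77 in differentiating and 2.95, 2.71 and 2.71 in proliferating cells, a change of -1.0 (SE 0.12, adjusted p = 2.66e-07). For Polr1a the change was 0.09 (adjusted p = 0.452) and for Polr1b -0.25 (adjusted p = 0.27).

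The 60S group was divided in differentiating cells. Nop16, Noc2l, Ebna1bp2, Rrs1, Rrp1b and Nop2 fell, with log2 changes from -1.06 to -0.37, while the PeBoW genes Bop1 (-0.01, SE 0.09), Pes1 (-0.20, SE 0.12) and Wdr12 (-0.35, SE 0.19) and also Wdr74 (-0.23, SE 0.14) did not pass. In the 40S group 8 of 13 fell, Imp4 (-0.86) and Utp20 (-0.79) by the most. Rrp12, which had the deepest fall in suspension, stood at 1.07, 0.95 and 0.73 and overlapped its proliferating arrays, with a change of 0.18 (SE 0.22, adjusted p = 0.486). Nop14, Utp4, Tsr1, Ltv1, Gnl3 and Ddx21 did not pass either, with changes from -0.40 to -0.14. Of the 25 calls 20 were kept under all alternatives run, and those of Wdr43, Wdr75, Rrp9, Ddx10 and Nop2 were lost under at least 1. Leaving out control proliferating replicate 1 ended the calls of Wdr43 (adjusted p = 0.0675), Ddx10 (0.0583), Rrp9 (0.194) and Nop2 (0.173). Leaving out control differentiating replicate 1 ended those of Wdr43 (0.0571), Rrp9 (0.053) and Nop2 (0.0782), and leaving out replicate 2 ended those of Rrp9 (0.0927) and Nop2 (0.104). Ddx10 was lost without control differentiating replicate 3 (0.0523) and Nop2 without control proliferating replicate 3 (0.0639). With replicate numbers as a block, Ddx21 (adjusted p = 0.0335) and Wdr12 (adjusted p = 0.0388) passed as lower.

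**Figure D3:**
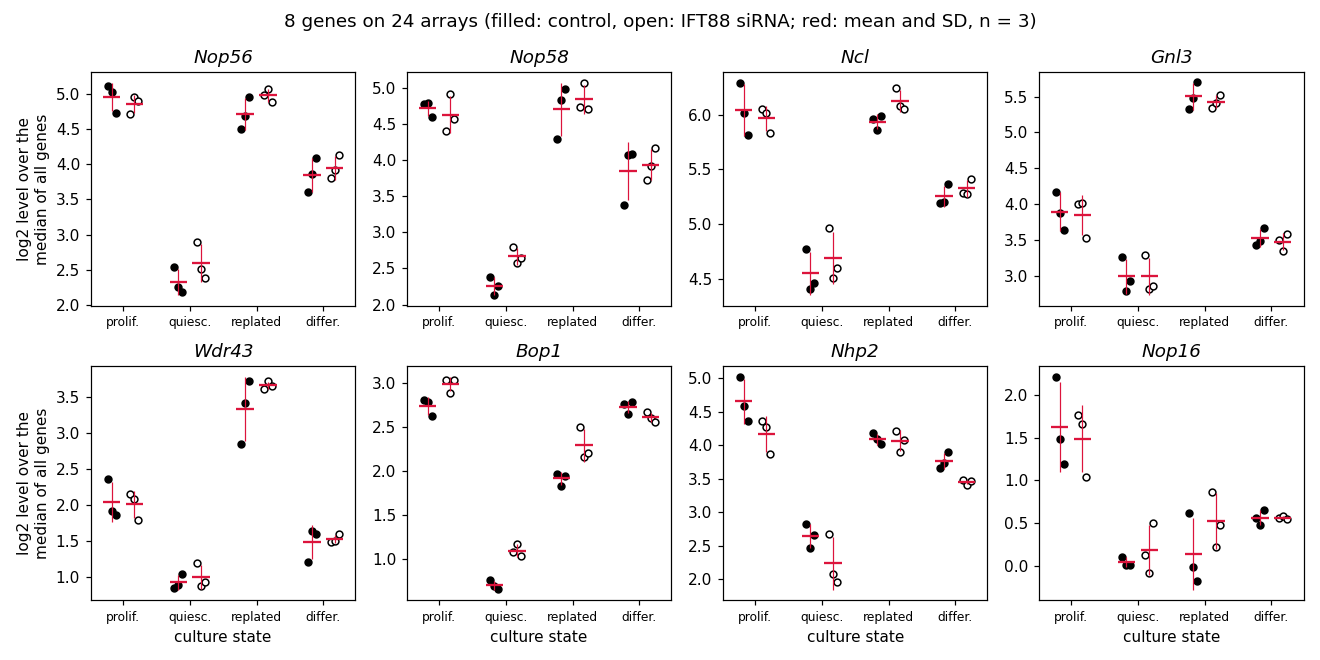
Levels of 8 genes on 24 arrays, in log2 units over the median of all genes of the array (vertical), by culture state (horizontal), with filled points for control, open points for IFT88 siRNA, and red lines for the mean and SD of 3 arrays. Gnl3 and Wdr43 are highest after replating, Bop1 after replating lies between its quiescent and proliferating levels and is higher with IFT88 siRNA in quiescent (0.39) and replated cells (0.37), and Nop16 spreads widely among replicates.

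Few of these genes passed between IFT88 siRNA and control. Ift88 itself passed as lower in quiescent cells only. In differentiating cells it averaged -0.65 with IFT88 siRNA and -0.63 in control, so the counts there cannot show how members respond to a knockdown. In proliferating cells 0 of 38 members passed (limma; 3 had an unadjusted p under 0.05), where 0.186% of all genes passed as higher and 0.197% as lower. In quiescent cells 1 member was higher and 0 lower, where 3.24% and 2.11% of all genes passed. In replated cells 1 was higher and 0 lower, against 1.51% and 1.13% of all genes. In differentiating cells 0 passed (limma; 0 at an unadjusted p under 0.05), against 0.0696% and 0.0464% of all genes. These shares of members are near those of all genes or rest on a single gene.

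That gene was Bop1 in both states. In quiescent cells Bop1 stood at 1.08, 1.18 and 1.03 with IFT88 siRNA and at 0.76, 0.69 and 0.66 in control, with no overlap. In replated cells it stood at 2.5, 2.16 and 2.21 against 1.97, 1.83 and 1.94, again with no overlap. The difference was 1.31-fold in quiescent cells (log2 change 0.39, SE 0.09, adjusted p = 0.0125) and 1.29-fold in replated cells (log2 change 0.37, SE 0.09, adjusted p = 0.0312). In proliferating cells the 3 IFT88KD arrays, at 3.03, 2.89 and 3.03, were also above the control ones, but the difference of 0.25 did not pass (adjusted p = 0.525), and in differentiating cells it was -0.12.

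The Bop1 calls are narrow. Of 17 alternatives 14 kept the call in quiescent and 13 in replated cells. With replicate numbers as a block the adjusted p was 0.00502 and 0.00948 (limma). In quiescent cells the adjusted p was 0.0664 without IFT88KD replicate 2, 0.0517 without control replicate 2 and 0.0594 without control replicate 3. In replated cells it was 0.173 without IFT88KD replicate 1, 0.142 without control replicate 2, 0.0613 without control replicate 3, and 0.232 when the 6 arrays compared were fitted alone. The log2 difference stayed between 0.35 and 0.44 in quiescent and between 0.27 and 0.44 in replated cells over all alternatives run.

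Arrays with the same replicate number deviated together within a state, and 2 more members passed when the number was used as a block. Over all genes the block raised the share of calls to 2.26% among proliferating arrays, 14.2% among quiescent and 11.8% among replated ones, so these extra calls came with many others and the members' counts of 1, 3 and 2 of 38 were near or under those shares. Nhp2 was lower with IFT88 siRNA in proliferating cells, at 4.37, 4.26 and 3.87 against 5.02, 4.59 and 4.36, and the arrays of the groups overlapped although each IFT88KD array lay below the control array of its number. That change of -0.49 had an adjusted p of 0.464 without the block and 0.0254 with it. In quiescent cells the Nhp2 change was -0.42, with adjusted p of 0.211 and 0.0152, and in differentiating cells it was -0.31 and passed in neither. The differentiating arrays did not overlap (3.41 to 3.47 against 3.66 to 3.90 in control), although Ift88 itself averaged -0.65 and -0.63 there. In replated cells the mean of Nhp2 was 4.07 with IFT88 siRNA and 4.09 in control. Nop2 was higher by 0.25 in quiescent cells (adjusted p = 0.419 without and 0.043 with the block) and by 0.28 in replated cells (adjusted p = 0.397 and 0.0309).

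The rest of the members had small differences in both directions. The median IFT88KD effect over 38 members was 0.01 in proliferating, 0.13 in quiescent, 0.16 in replated and -0.01 in differentiating cells, with medians of all genes between -0.01 and 0.00. In quiescent cells 28 of 38 and in replated cells 31 of 38 were above 0, where 4408 and 4105 of the 8616 genes were. These medians rest on single arrays. In quiescent cells the median was 0.02 without IFT88KD replicate 1 and 0.09 without either control replicate 2 or control replicate 3, and in replated cells it was 0.09 without control replicate 1. In proliferating cells it ran from -0.14 without control replicate 3 to 0.15 without control replicate 1. For Nop58, which had the largest difference in quiescent cells, the values were 2.80, 2.57 and 2.64 against 2.39, 2.13 and 2.25, a change of 0.41 (SE 0.19, adjusted p = 0.264). Nop10 was lower by 0.21 in proliferating and 0.20 in quiescent cells, without overlap in either, and passed in neither (adjusted p = 0.577 and 0.204).

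Other genes moved with the siRNA in the same states. All 9 genes of dividing cells were higher in IFT88KD than in control quiescent cells, by a median of 1.81, and 8 of 9 in replated cells, by a median of 1.5. The 6 markers of differentiating muscle had median differences of 0.70, 0.67 and 0.70 in proliferating, quiescent and replated cells, of which 0 passed (limma; 1, 0 and 0 at an unadjusted p under 0.05). Among 3 macrophage markers kept, 2 were lower in quiescent and 2 in replated IFT88KD cells, and of the 3 fibroblast markers kept 1 was lower in quiescent and 0 in replated cells (limma; 2 at an unadjusted p under 0.05). Cd68 and Lum were above the filter on 0 IFT88KD quiescent arrays and were kept through groups where they were higher. The mean level of the 6 macrophage markers ranged from -1.51 to -1.36 on control and from -2.12 to -1.83 on IFT88KD quiescent arrays, and 3 of them were above the filter on no control quiescent array. The part of these differences in the Bop1, Nhp2 and Nop2 values was not tested.

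The IFT88KD effect on the members was compared between states directly. Between quiescent and proliferating cells 0 members passed (limma; 0 at an unadjusted p under 0.05), beside 1.31% of all genes. Between replated and quiescent cells 0 passed (1 at an unadjusted p under 0.05), beside 0.058% of all genes, and between differentiating and proliferating cells 0 passed (1 at an unadjusted p under 0.05), beside 0.0348%. For Bop1 the effect was lower by 0.37 (SE 0.13) in differentiating than in proliferating cells, with an adjusted p of 0.997.

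**Figure D4:**
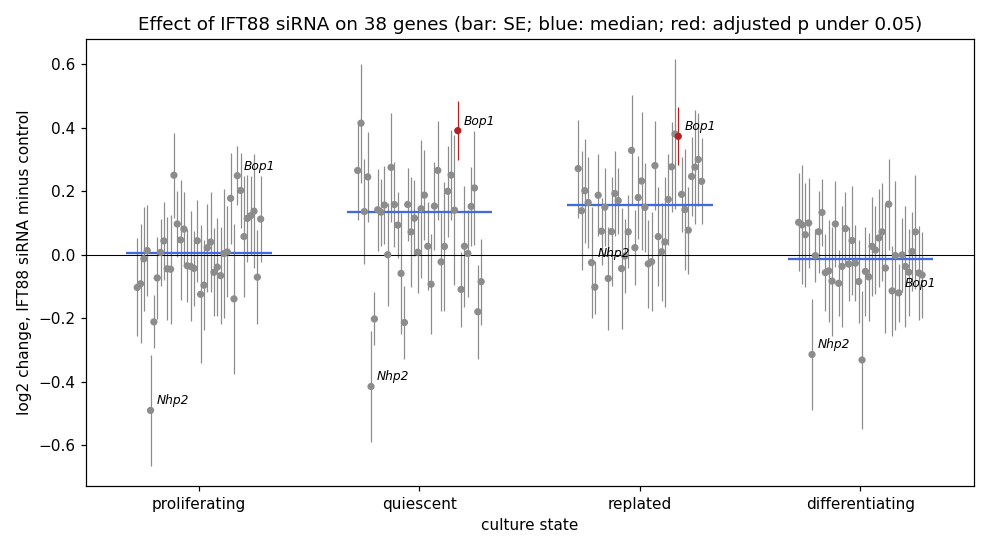
Log2 difference between IFT88 siRNA and control (vertical) for 38 genes in each of 4 culture states (horizontal); points are differences, bars are standard errors, blue lines are medians and red marks an adjusted p under 0.05. The medians are 0.01, 0.13, 0.16 and -0.01, and Bop1 is the red point in quiescent (0.39) and replated cells (0.37).

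The replicates of the proliferating and quiescent states differed from each other in the same way for most members. Replicate 1 was the highest of 3 in 37 of 38 members on the control proliferating arrays and in 27 of 38 on the IFT88KD ones, and replicate 3 was the lowest in 33 and 28. In quiescent cells replicate 1 was the highest in 28 of 38 members on the control and in 33 of 38 on the IFT88KD arrays. These ranks were not counted over all genes, so they are not shown to be particular to the members. The median of 71 further biogenesis factors, taken up below, had the same order on control proliferating arrays. It lay 0.24, -0.03 and -0.23 from the control proliferating mean. The mean level over the members was 3.19, 2.85 and 2.65 on the control proliferating arrays and 1.59, 1.44 and 1.45 on the control quiescent ones. Each control proliferating mean lay above each control quiescent one. Without control proliferating replicate 1, 37 of 38 members passed as lower in quiescent cells and 21 as lower in differentiating cells, and without control proliferating replicate 3 the latter count was 30.

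Other genes of the pathway were read as lists of names. Of 71 further biogenesis factors above the filter, 57 were lower and 1 higher in quiescent than in proliferating control cells, with a median of -1.03, against -1.39 for the members. After replating 62 of the 71 were higher and 1 lower than in quiescent cells, with a median of 0.89, where all genes had 0.35. With uncentred values that split was 22 higher and 23 lower (median -0.06), and after quantile normalisation it was 48 and 2 (median 0.59). In differentiating cells 45 of the 71 were lower than in proliferating ones. Grwd1, a histone-binding assembly factor, changed by -2.18 and then by 2.12, and Mdn1, the giant ATPase that remodels the 60S precursor, rose by 2.36. In quiescent IFT88KD cells 0 of the 71 passed (limma; 2 at an unadjusted p under 0.05).

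Of 10 subunits and factors of RNA polymerase I that are not members, 8 were lower and 1 (Ttf1, a terminator factor) higher in quiescent cells, and 8 were higher and 1 (Taf1b) lower after replating. Tcof1, or treacle, which links RNA polymerase I to processing, changed by -2.35 and then by 2.10, and Rrn3, the initiation factor of the polymerase, changed by -1.23. Of 10 subunits and cofactors of the nuclear exosome, which trims precursor ends, 9 fell, Dis3 by the most (-2.26), and 8 then rose. With uncentred values the replated comparison gave 4 higher and 3 lower genes of the polymerase list and 1 higher and 5 lower of the exosome.

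The ribosomal proteins are built into the subunits that this machinery assembles. Of 42 above the filter, 32 were lower and 1 higher in quiescent than in proliferating cells with a median of -0.33, and 41 were higher in replated than in quiescent cells with a median of 0.60. Both directions rest on the scale. With uncentred values 11 were lower and 4 higher in quiescent than in proliferating cells, and 34 were lower and 2 higher in replated than in quiescent cells with a median of -0.34. After quantile normalisation the replated comparison gave 8 higher and 13 lower with a median of -0.10. Their median change from the proliferating mean was 0.23 to 0.32 on the control replated arrays, near the 0.29 of all genes, and between -0.37 and -0.29 on the control quiescent arrays. The members' median on the control quiescent arrays was between -1.54 and -1.27. Of the 9 genes of dividing cells 1 was higher and 1 lower in replated than in quiescent cells, with a median of -0.16, and with uncentred values 0 were higher and 8 lower.

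Myc did not pass as lower in quiescent cells. Its mean level was 2.11 ± 0.63 (SD, n = 3) in control proliferating and 2.41 ± 0.56 in quiescent cells, a difference of 0.30 (SE 0.29) that did not pass (adjusted p = 0.376). It rose to 4.34 ± 0.03 in replated cells, by 1.93 (SE 0.29, adjusted p = 6.23e-06), and was at 1.67 ± 0.18 in differentiating cells. Max, its partner, rose by 1.71 after replating. The repressors of the same DNA letters Mxi1 and Mxd4 were higher in quiescent than in proliferating cells, by 2.46 and 1.69, and Mxd3 changed by -3.90. No measurement of Myc binding was analysed here.

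**Figure D5:**
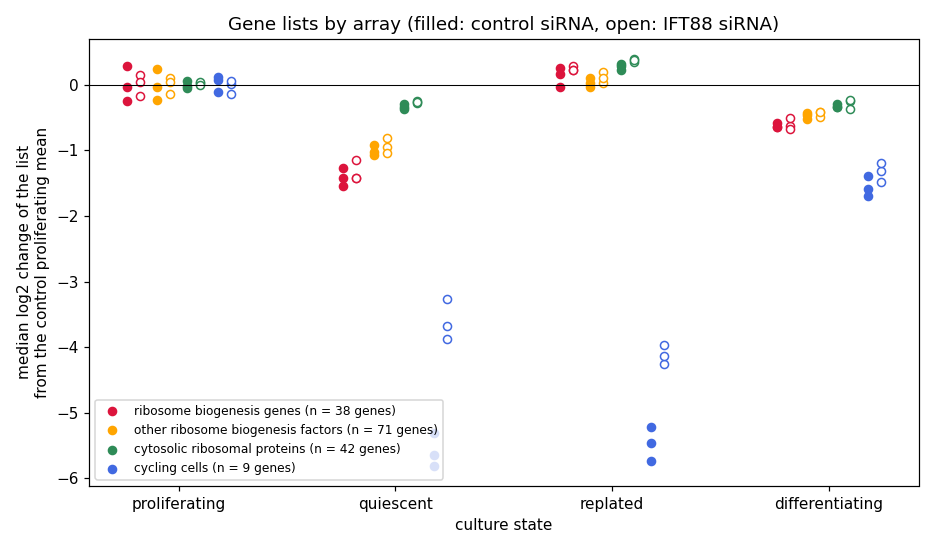
Median log2 change from the control proliferating mean (vertical) of 4 gene lists on each array, by culture state (horizontal), with filled points for control and open points for IFT88 siRNA. On this centred scale the 38 ribosome biogenesis genes and the 71 further factors fall in quiescent cells and return by 2 h after replating (with uncentred values the 71 change by a median of -0.06 from quiescent to replated cells), ribosomal proteins lie between -0.37 and 0.39, and the 9 genes of dividing cells stay between -5.73 and -5.21 on the control replated arrays and higher, between -4.25 and -3.96, with IFT88 siRNA.

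By the order of the control means, 35 of the 38 members were lowest in quiescent cells, 2 in differentiating cells and 1 (Ddx10) in replated cells. The highest mean was in replated cells for 20 members, in proliferating cells for 17 and in differentiating cells for 1 (Rrp12). This order was not counted over all genes, so it is not shown to be particular to the members. Against control proliferating cells, 40.3% of all genes passed as lower in quiescent and 49.6% as higher in replated cells. Both ends of the order moved with the scale. With uncentred values 27 members were lowest in quiescent, 8 in replated and 3 in differentiating cells, and 29 were highest in proliferating cells. After quantile normalisation 34 were lowest in quiescent cells and 23 highest in proliferating cells. As 11 members did not pass between replated and proliferating cells, the order of these states is not resolved for many members.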

How the data were processed

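RNA of C2C12 cells was hybridised to 24 Affymetrix mouse arrays (8 groups of 3). The deposited values were log2 expression of 22690 probe sets. They were made with GCOS, Affymetrix Expression Console and affy, per the submitters' processing notes, and their versions and normalisation are not given in the sources used here. Sorted values differed by a median of 0.05 to 0.10 log2 among the 6 arrays of a state and by 0.49 among all 24, so each array was centred on the median of its 12393 genes, which makes comparisons of states relative. The number of arrays limits the precision.

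Of the probe sets 20380 were assigned to 1 gene, 691 to several and 1555 to none, and 64 were controls. The brightest single-gene probe set stood for a gene. The filter on low values kept the 8616 genes that exceeded the 40th percentile of all probe sets of an array on 3 or more arrays.

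A linear model with a coefficient per group was fitted with limma 3.58.1 in R 4.3.3 over all 24 arrays, 11 comparisons were taken, and Benjamini-Hochberg adjustment ran over all 8616 genes, with a threshold of 0.05 for the adjusted p. The program was tested on simulated data. Plots were drawn with matplotlib 3.10.9 in Python 3.11.15.

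The members and lists were chosen with earlier results of these data known. Members were named by the size of their change within each comparison, up to 8 a direction, and at least 1 per role was given array by array. Other genes named were Ift88, Myc and those of the largest change in each pathway list. Alternatives were 3 other scalings, other filters and probe set choices, other variance models, the compared groups alone, replicate numbers as a block, and leaving out each array. Within each state, same-numbered IFT88KD and control arrays deviated together from their group means (correlations across genes of 0.257 to 0.708), so the numbers pair them. The pairing comes from these correlations, as no label states it. No 2 arrays held identical values (0 pairs).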

Additional observations from a re-analysis of the deposited data

How the results depend on the processing

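Under the alternatives run, 36 of 38 calls into quiescence, 25 of 36 after replating and 20 of 25 in differentiation kept their direction and side of the threshold. Between replated and proliferating cells only 9 of 27 did. Counts of members past the threshold, both directions summed, stayed within 1.5 times for these comparisons, but calls switched direction: between replated and proliferating cells 16 higher and 11 lower became 3 and 26 with uncentred values, 9 and 18 after quantile normalisation and 11 and 13 with centring on the kept genes, and after replating the lower calls went from 1 to 5 with uncentred values. With the replicate block, which pairs arrays of equal number, the IFT88KD effect passed for 1 member in proliferating cells (0 unpaired), 3 in quiescent cells (1 unpaired) and 2 in replated cells (1 unpaired), where the block called 2.26%, 14.2% and 11.8% of all genes. Array weights gave 3 in quiescent cells, where they called 10.5% of all genes, and the compared groups alone gave 0 in replated cells. Leaving out 1 array gave 0 to 2 in quiescent and 0 to 1 in replated cells. The cause of these changes was not tested.

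The signs of some changes turned with the scale. With uncentred values the change from quiescent to replated cells became -0.52 for Npm1, -0.059 for Polr1c, -0.028 for Noc4l, -0.10 for Imp4, -0.33 for Pes1 and -0.18 for Wdr12, and after quantile normalisation -0.23 for Npm1. The change from proliferating to replated cells became -0.38 for Nolc1, -0.29 for Mybbp1a, -0.38 for Polr1a, -0.26 for Polr1b, -0.052 for Wdr75, -0.062 for Rrp9, -0.35 for Utp18, -0.15 for Wdr74, -0.014 for Rrp1b and -0.12 for Noc2l with uncentred values. After quantile normalisation it became -0.051 for Nolc1, -0.064 for Mybbp1a and -0.035 for Utp18. With the mean of all probe sets Wdr75 changed by 0.055 in differentiating cells.

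The arrays give relative levels, with no measure of total RNA per cell. Signals near background, as for Rrp12 in quiescent cells, can understate a change. With 3 arrays a group, small effects of the siRNA can be missed.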
